A study of Caenorhabditis elegans with 2 samples.

Results

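The RNA interference (RNAi) and small RNA genes described here are 42 genes of the nematode Caenorhabditis elegans, chosen by name from the known factors of these pathways. Each was looked up by symbol in the WBcel235 gene annotation, and all 42 were found among 19973 protein-coding genes on the 6 nuclear chromosomes. LIN-35 binding was mapped by chromatin immunoprecipitation with sequencing (ChIP-seq) in whole L1 larvae of mixed sex, with 1 group of 2 biological replicates. The strain, YL409, has the genotype unc-119(ed3)III and carries the insertion vrIs60, in which the lin-35 promoter drives LIN-35 joined to GFP and FLAG, with a functional unc-119 copy as the rescue marker. All samples carry that insertion, and no untagged strain, other stage or control library was analysed here. A peak of a whole larva averages over all its cells, so binding in few cells and weak binding in many cannot be told apart. The antibody is labelled lin-35 and the bound protein a GFP fusion, and whether the antibody was against the tag is not stated there. The deposited peak lists give positions and a signal value made by the authors, and the depth behind them is unknown.

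Small RNA pathways silence genes through Argonaute proteins, which carry a short RNA as a guide. In the RNAi response of C. elegans, Dicer cuts double-stranded RNA (dsRNA), a primary Argonaute uses the product, and RNA-dependent RNA polymerases with the Mutator complex then make the secondary small RNAs that do most of the silencing. MicroRNAs, piRNAs and endogenous siRNAs use related Argonautes, and nuclear RNAi factors carry silencing to chromatin. LIN-35 is the worm's Rb-family pocket protein and part of the DREAM repressor complex, and lin-35 mutants are known for enhanced RNAi and for germline gene expression in somatic cells.

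Genes counted as bound had, no more than 500 bp from the annotated gene start, the summit of a peak in the authors' IDR list. The irreproducible discovery rate (IDR) filters peaks by how well replicates match. The sequences at the centre of 5 such peaks are shown to make the binding places visible. They are the peaks of rde-4 (the strongest among the bound genes), of alg-2 (the bound gene whose summit lay downstream of its start) and of nrde-4, and the more distant upstream peaks of rde-12 and nrde-2. Each runs 40 bp to either side of the summit, in the WBcel235 (ce11) sequence from RefSeq, 5′ to 3′ on the strand of the gene. Capitals mark the letters of 2 motifs read on either strand: the E2F letters TTCCCGC or TTCGCGC or TTGCCGC or TTGGCGC, and the letters TTTGAA or TTCGAA of the cell cycle genes homology region (CHR), which the DREAM subunit LIN-54 recognises. The windows lie at chrIII:10218731-10218811 (rde-4, minus strand), chrII:873550-873630 (alg-2, plus), chrIV:7654511-7654591 (nrde-4, minus), chrV:13664517-13664597 (rde-12, plus) and chrII:10248533-10248613 (nrde-2, minus). The alg-2 window is in an intron of alg-2, and the summits of the other 4 lie between protein-coding genes.
rde-4: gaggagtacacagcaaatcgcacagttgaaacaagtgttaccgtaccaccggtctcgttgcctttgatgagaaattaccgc
alg-2: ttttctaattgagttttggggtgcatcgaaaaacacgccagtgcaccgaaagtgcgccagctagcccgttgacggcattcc
nrde-4: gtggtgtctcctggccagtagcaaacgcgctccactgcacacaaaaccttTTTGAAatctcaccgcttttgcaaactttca
rde-12: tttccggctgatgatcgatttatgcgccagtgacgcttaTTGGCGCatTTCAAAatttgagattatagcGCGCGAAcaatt
nrde-2: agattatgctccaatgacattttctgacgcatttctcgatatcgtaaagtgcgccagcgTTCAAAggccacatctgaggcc
The rde-12 window holds E2F letters at its centre and again near its end, with CHR letters between them that do not overlap either. The nrde-4 and nrde-2 windows hold CHR letters, and those of rde-4 and alg-2 hold neither motif.

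LIN-35 had an IDR peak at 10 of the 42 small RNA genes (23.8%, exact 95% interval 12 to 39.5), where 13.6% of the 19931 other protein-coding genes had one. The bound genes were rde-4, mut-15, mut-2, rde-8, rrf-3, ekl-1, rde-10, alg-2, nrde-4 and wago-4, in order of peak signal, at 10 distinct peaks. Within 1000 bp the count was 16 genes (38.1%), against 17.2% of other genes. The 6 genes added were rde-2, nrde-2, ain-1, rde-12, mut-7 and ain-2. With the weak peaks of the pooled list included, 27 genes (64.3%) had a summit within 500 bp and 31 (73.8%) within 1000 bp, against 37.0% and 50.1% of other genes. The share was higher than the background at each of these 4 settings, and the list's 95% interval at 500 bp with IDR peaks reached below the background. No test of the list was made, since its members were chosen with earlier results known.

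**Figure D1:**
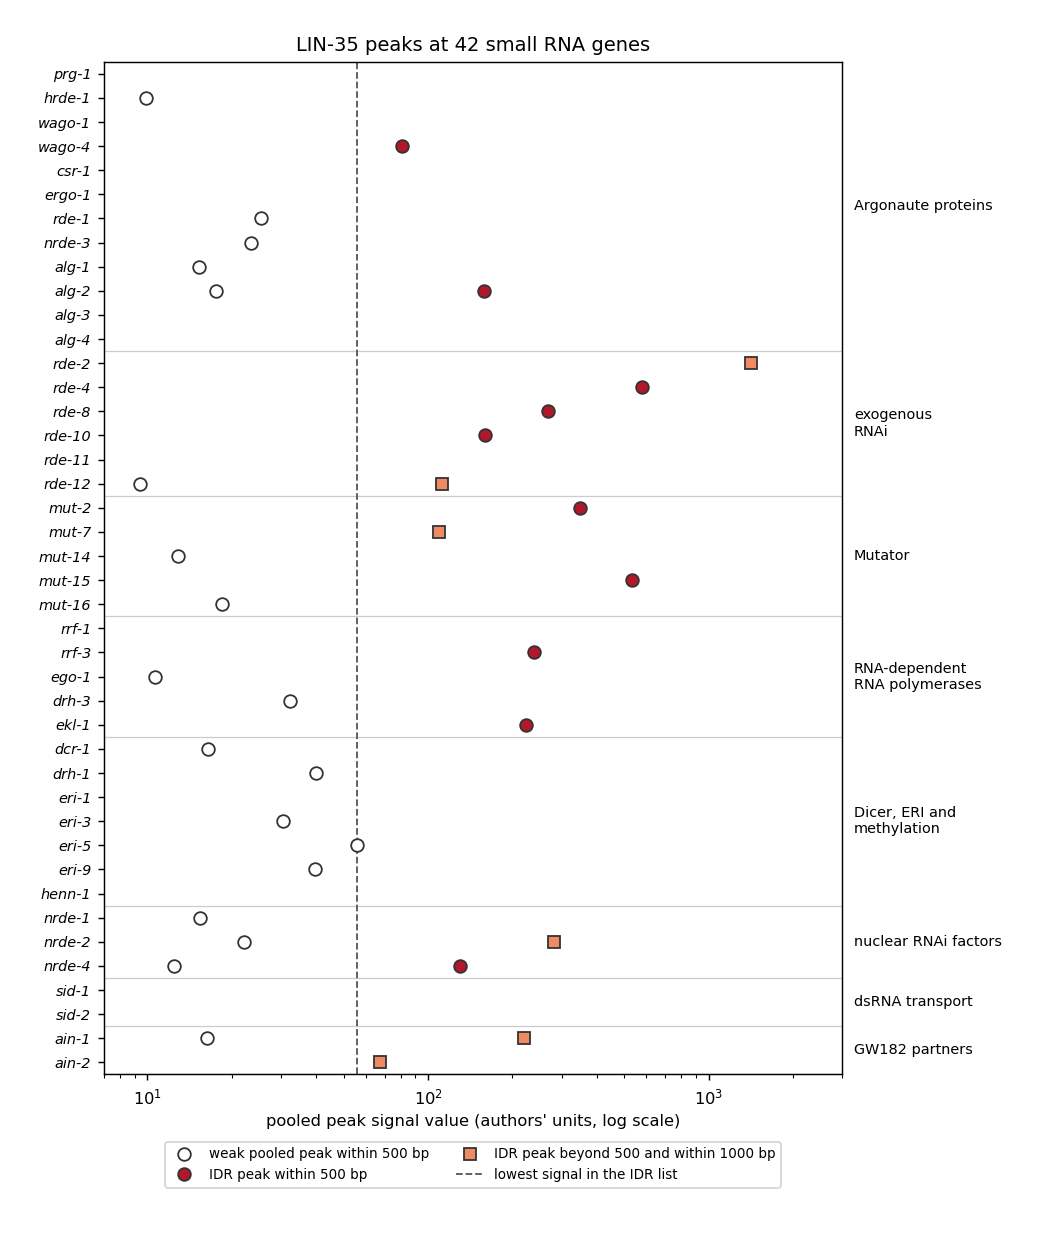
Signal value of the pooled peaks (log scale, authors' units) at the 42 genes, grouped by role, showing for each gene the strongest IDR peak within 500 bp (filled circle), the strongest IDR peak beyond 500 and within 1000 bp (square) and the strongest weak peak within 500 bp (open circle). The 10 bound genes lie between 80.9 and 578, to the right of the dashed line at 56.0, the lowest signal in the IDR list, while eri-1 and the 11 genes without any pooled summit within 1000 bp have no point.

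Of the 6 dsRNA and exogenous RNAi factors, 3 had an IDR summit within 500 bp and 5 within 1000 bp, where 13.6% and 17.2% of other genes did. The groups by role are small, and differences between them were not tested. rde-4, which encodes the dsRNA-binding partner of Dicer (WBGene00004326, chromosome III, 10217302 to 10218646, minus strand), had the strongest peak of the bound genes. Its peak at 10218643 to 10218902 had a signal of 578 and rank 348 of the 3838 IDR peaks, with a signal of 244 in replicate 1 (rank 213) and 335 in replicate 2 (rank 437). How signal was scaled in each list is unknown, so ranks, not signals, were used to compare the replicates. rde-4 was near the top of both. rde-8, an endoribonuclease acting on RNAi targets (WBGene00022620, chromosome IV), had a peak at 7103386 to 7103569 with a signal of 268, ranking 826 in the IDR list, 771 in replicate 1 and 894 in replicate 2. rde-10, which works with rde-11 in secondary siRNA production (WBGene00021634, chromosome I), had a peak at 3546984 to 3547152 with a signal of 160, ranking 1479, and 970 and 1917 in replicates 1 and 2. The rde-10 summit lay 6 bp upstream of the gene start, the rde-8 summit 229 bp and the rde-4 summit 125 bp upstream.

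rde-2 and rde-12 had IDR peaks further upstream. rde-2 encodes a partner of the exonuclease MUT-7, and its peak was the strongest near any listed gene, with a signal of 1413 and rank 58 (77 in replicate 1 and 51 in replicate 2). That summit lay 927 bp upstream of rde-2 but 89 bp upstream of pfd-6, a prefoldin subunit gene on the same strand that ends within 500 bp of rde-2, the arrangement of an operon. rde-12, a helicase of the secondary siRNA step, had a peak 832 bp upstream with a signal of 112 (rank 2151, and 2168 and 2785 in the replicates) and no other protein-coding start within 500 bp of that summit. A weak pooled peak of signal 9.44 lay closer, at 218 bp, and was listed in replicate 2 but not in replicate 1. rde-11 had no pooled summit within 1000 bp, and only replicate 2 listed a peak there (rank 20844).

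Among the 5 genes grouped as Mutator and UG-tailing factors, which amplify secondary siRNAs, mut-15 and mut-2 were bound. rde-2, the partner of MUT-7, was placed with the exogenous RNAi factors, so the counts of both groups depend on that choice. mut-15, a core component of Mutator foci (WBGene00011323, chromosome V), had a peak at 15002164 to 15002453 with a signal of 534 and rank 374, ranking 312 in replicate 1 and 452 in replicate 2. mut-2, the nucleotidyltransferase that adds UG-repeat tails to RNAi targets (WBGene00003499, chromosome I), had a peak at 6358473 to 6358705 with a signal of 347 and rank 617, ranking 824 and 619 in the replicates. Both were strong in both libraries. The mut-2 summit lay in the 5′ UTR of the neighbouring gene K04F10.3, 188 bp upstream of mut-2 itself. mut-7, the exonuclease of the complex, had an IDR peak 632 bp upstream (signal 109, rank 2192, and 1663 and 2517 in the replicates), nearer to eif-2Balpha, a translation initiation factor subunit gene. mut-16, the scaffold of Mutator foci, had a weak peak 1 bp outside the 500 bp window (signal 43.9, rank 4633 in the pooled list, and 3278 and 4912 in the replicates). A further one of signal 18.4 lay within the window, in an intron of mut-16, and was listed in replicate 2 but not in replicate 1. mut-14, a DEAD-box helicase gene, had only a weak peak (signal 12.9, in replicate 1 but not in replicate 2). Its summit lay 105 bp from mut-14 and 350 bp from the opposite-strand start of C14C11.2.

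Among the RNA-dependent RNA polymerases and their partners, rrf-3 and ekl-1 were bound. rrf-3, the polymerase that makes primary endogenous siRNAs (WBGene00004510, chromosome II), had its summit 12 bp upstream of the gene, in a peak at 8162333 to 8162559 with a signal of 239 (rank 970, and 1553 and 789 in the replicates). ekl-1, a Tudor-domain partner of the germline polymerase EGO-1 (WBGene00009052, chromosome I), had a peak at 7094939 to 7095099 with a signal of 224 (rank 1045, and 1186 and 1011). Its summit lay 461 bp upstream, near the edge of the window. drh-3, the helicase of the same module, had a weak peak 36 bp upstream (signal 32.2), listed in replicate 2 but not in replicate 1. ego-1 had a weak peak in its coding sequence (signal 10.6) and a stronger one 647 bp upstream (signal 46.1), in the 3′ UTR of another gene. rrf-1, the polymerase used in somatic RNAi, had no pooled summit within 1000 bp, and replicate 1 alone listed a weak peak there (rank 12724).

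Of the 12 Argonaute genes 2 were bound, a share near the 13.6% of other genes. alg-2, a microRNA Argonaute (WBGene00000106, chromosome II), had a peak at 873509 to 873651 inside its intron, 378 bp downstream of its start, with a signal of 158 and rank 1501. wago-4, an Argonaute of inherited germline silencing (WBGene00010263, chromosome II), had a peak at 12919173 to 12919496, 216 bp upstream, with a signal of 80.9 and rank 2854. Among the peaks of the bound genes, these 2 had the largest differences in rank between the libraries, counted in places and not as a ratio. In replicate 2 the alg-2 peak ranked 1235 and the wago-4 peak 2409, whereas in replicate 1 they ranked 4198 (signal 11.6) and 4858 (signal 9.99), beyond the 3838 strongest.

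Of the other Argonaute genes, 4 had weak peaks only within 500 bp. They were rde-1, the primary Argonaute of exogenous RNAi (signal 25.4), nrde-3, the somatic nuclear Argonaute (signal 23.4), alg-1, the other microRNA Argonaute of the soma (signal 15.3), and hrde-1, the germline nuclear Argonaute (signal 9.90). The rde-1 and hrde-1 summits, 201 and 211 bp upstream, lay nearer to starts on the opposite strand. These were trpp-6 (52 bp) and C16C10.13 (70 bp). The peaks at rde-1 and hrde-1 were listed in replicate 2 but not in replicate 1, and that at alg-1 in replicate 1 but not in replicate 2. A stronger weak peak lay 778 bp upstream of alg-1 (signal 29.1, rank 6663, and 10733 and 6164 in the replicates). alg-1 also had an IDR peak far inside the gene record, at 13950740 to 13951063 on chromosome X (signal 60.0, rank 3632, and 3969 and 3309 in the replicates). That summit lay 1792 bp downstream of the start of the gene record and 360 bp upstream of another annotated transcript start, so alg-1 counts as bound when any transcript start is used. The other 6 had no pooled summit within 1000 bp. They were prg-1 (piRNAs), csr-1, wago-1 and ergo-1 (endogenous siRNAs), and alg-3 and alg-4 (spermatogenesis). Replicate 1 alone listed a weak peak within 1000 bp of alg-3 (rank 12201), prg-1 (rank 14756) and alg-4 (rank 16898), and neither replicate listed one at csr-1, wago-1 or ergo-1.

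None of the 7 genes for Dicer, the ERI factors and small RNA methylation had an IDR summit within 1000 bp, and 5 had a weak pooled peak within 500 bp. Among other genes 17.2% had such an IDR summit, so in 7 genes a count of 0 lies near the background. A pooled summit within 500 bp without an IDR summit within 1000 bp was found at 22.0% of other genes. eri-5, a Tudor-domain protein that tethers RRF-3 to Dicer, fell just short. Its peak 434 bp upstream had a signal of 55.8 and rank 3850 in the pooled list, where the IDR list ends at 3838, and it ranked 2527 in replicate 1 and 4658 in replicate 2. drh-1, a RIG-I-like helicase of antiviral RNAi, had a peak of signal 39.9, eri-9 one of 39.4, eri-3 one of 30.5 and dcr-1, Dicer itself, one of 16.4, with summits 90 to 251 bp upstream. The eri-3 and eri-9 summits, 155 and 251 bp upstream, lay nearer to opposite-strand starts, of sut-1 (114 bp) and C26E6.12 (54 bp). That of eri-9 was in the 5′ UTR of C26E6.12. The dcr-1 summit had the opposite-strand start of apc-2 258 bp away, and dcr-1 itself was nearer. The drh-1 peak had rank 10459 in replicate 1 and 4497 in replicate 2, and the eri-3 peak was listed in replicate 2 but not in replicate 1. eri-1, a siRNA exonuclease, had only a peak of signal 9.93, 914 bp into the gene, listed in replicate 2 but not in replicate 1. henn-1, the methyltransferase that stabilises small RNAs, had no pooled summit within 1000 bp, and replicate 2 alone listed a weak peak there (rank 25162).

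Of the 3 nuclear RNAi factors, nrde-4 was bound (WBGene00001584, chromosome IV). Its peak at 7654491 to 7654610, 289 bp upstream, had a signal of 130 and rank 1833, ranking 2701 in replicate 1 and 1570 in replicate 2, and no other start lay within 500 bp. nrde-2 had a stronger IDR peak, but 935 bp upstream (signal 282, rank 790, and 1163 and 723 in the replicates), where the start of atad-3, a mitochondrial ATPase gene, lay 418 bp from the summit and was the nearest. A weak peak of signal 22.0 lay 91 bp upstream of nrde-2. nrde-1 had only a weak peak (signal 15.4) in the 3′ UTR of alkb-8, the gene before it on the same strand. The weak peaks of nrde-2 and nrde-1 were both listed in replicate 2 but not in replicate 1.

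The dsRNA transport genes sid-1 and sid-2, a dsRNA channel and a gut receptor, had no pooled summit within 1000 bp. For sid-1 each replicate listed a weak peak (rank 10318 in replicate 1 and 23199 in replicate 2), at different positions, and for sid-2 neither did. The GW182-like microRNA partners ain-1 and ain-2 had no IDR summit within 500 bp and both had one within 1000 bp. ain-1 had 2 IDR summits upstream, at 982 bp (signal 219, rank 1087) and 778 bp (signal 76.4, rank 2988), with no other protein-coding start within 500 bp of the stronger one. In replicate 1 both matched the same peak (rank 1588), and in replicate 2 they ranked 977 and 1774. ain-2 had an IDR summit in its own intron, 734 bp downstream of the start (signal 67.6, rank 3305, and 2908 and 3258 in the replicates).

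**Figure D2:**
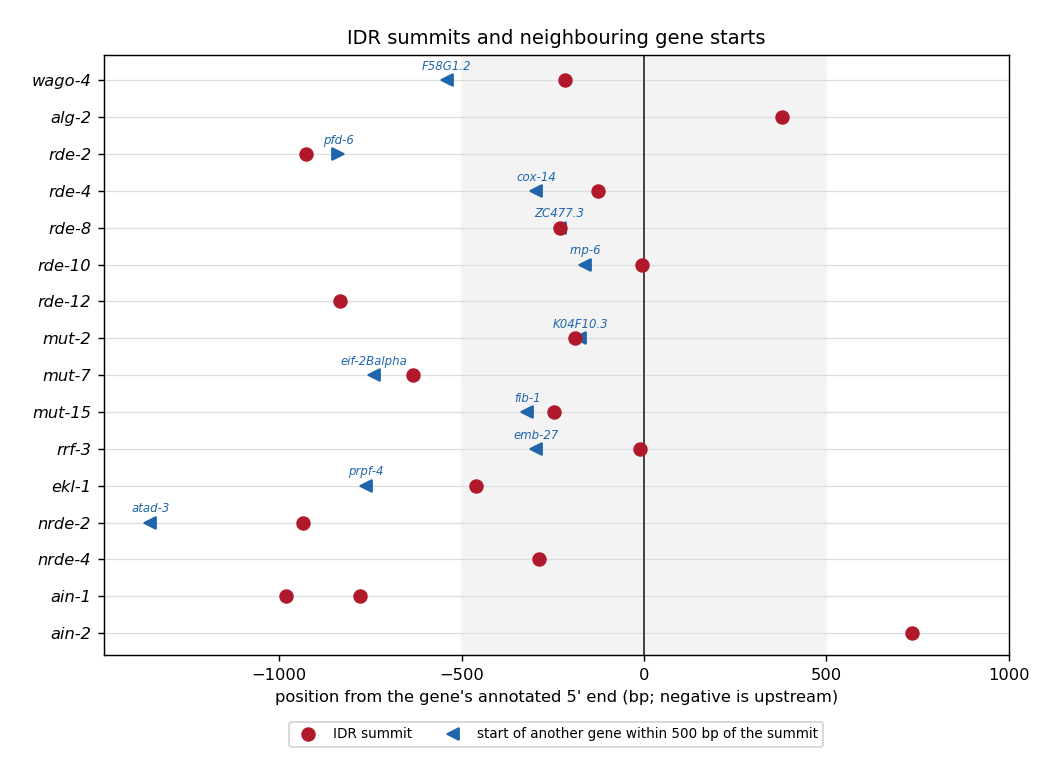
Positions of IDR summits (red) from the annotated 5′ end of the 16 genes with an IDR summit within 1000 bp, in bp, negative being upstream, with the starts of other protein-coding genes within 500 bp of the strongest summit in the nearer window (blue arrows, pointing in the direction of transcription, left for the opposite strand). The shaded band is 500 bp to either side, and 14 of the 16 genes have their summits upstream, alg-2 and ain-2 being the exceptions.

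The peaks of the bound genes lay mostly upstream of the start, as did those of other bound genes. The summit lay upstream of the start at 9 of 10, against 91.7% of bound other genes, at a median distance of 222 bp against 182 bp. Their signals ran from 80.9 to 578 with a median of 232, and those of bound other genes from 56.1 to 3457 with a median of 181. The median rank was 1008 against 1306, and 9 of 10 were among the stronger 1919 IDR peaks, against 64.9% of bound other genes. The best rank among the 10 was 348, at rde-4.

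All 10 bound genes had a peak in both replicate lists. Their ranks ran from 213 to 4858 in replicate 1, with a median of 1078, and from 437 to 2409 in replicate 2, with a median of 952.5. With the 3838 strongest peaks of replicate 2 alone, 10 genes were bound, and with those of replicate 1 alone 9 were. wago-4 and alg-2 dropped out in replicate 1 and eri-5 came in. Over the whole IDR list, 648 of the 3732 peaks found in both lists ranked beyond 3838 in replicate 1 and 257 did in replicate 2.

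**Figure D3:**
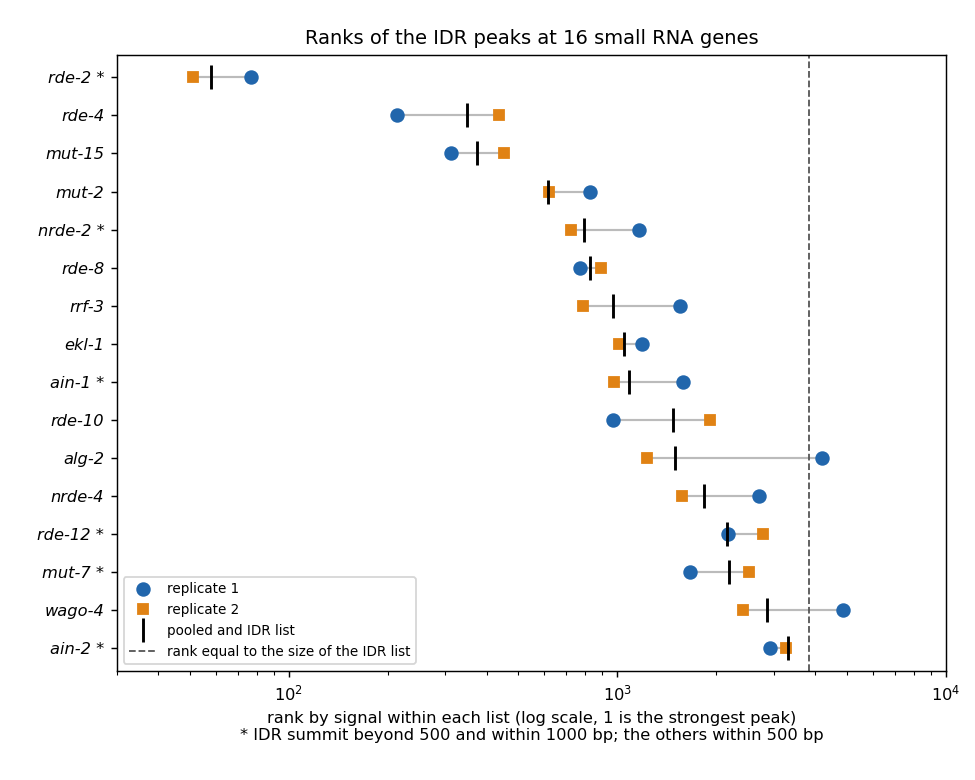
Rank by signal (log scale, 1 is the strongest) of the IDR peak of 16 small RNA genes in replicate 1 (blue), replicate 2 (orange) and the pooled and IDR lists (black bar), with a dashed line at rank 3838. The points of mut-15, mut-2, rde-8 and ekl-1 lie close together, and the replicate 1 points of alg-2 and wago-4, at 4198 and 4858, lie to the right of the line.

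Most of the bound small RNA genes shared their peak with a gene on the other strand. Another protein-coding start lay within 500 bp of the summit at 8 of 10 genes, against 44.9% of bound other genes. In all 8 it was on the opposite strand, against 43.7% of bound other genes with an opposite-strand start there. The pairs were rde-4 with cox-14 (a cytochrome oxidase assembly factor), mut-15 with fib-1 (fibrillarin), rrf-3 with emb-27 (a subunit of the anaphase promoting complex), rde-10 with rnp-6 (a splicing factor), ekl-1 with prpf-4 (a pre-mRNA processing kinase), rde-8 with ZC477.3, mut-2 with K04F10.3 and wago-4 with F58G1.2. alg-2 and nrde-4 had their peaks to themselves. Counting each peak only for the nearest start left 6 of 10 bound, against 77.4% of bound other genes that were the nearest start of their peak. The 6 were alg-2, nrde-4, rde-4, rde-10, rrf-3 and wago-4. At mut-15, mut-2, rde-8 and ekl-1 the summit was nearer to the partner, at 74, 14, 2 and 302 bp from its start.

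Many of the small RNA genes lie in head-to-head pairs. A start on the opposite strand lay within 1000 bp upstream of 20 of 42 (47.6%) and of 17.7% of other genes. At the 20 genes the starts were 161 to 883 bp apart, with a median of 308 bp. Other genes with such a neighbour had a wider median distance, 479 bp. This arrangement moved with binding across the genome: 37.6% of other genes with such a neighbour were bound and 8.46% of those without. Among the small RNA genes 8 of 20 with a neighbour (40%) and 2 of 22 without (9.09%) were bound, close to those shares. At the rates of other genes of the same arrangement, 9.38 of the 42 would be bound, where 10 were. The difference of 10.2 percentage points from other genes thus came to 1.47 points once the presence of such a neighbour was matched. This comparison was chosen after seeing the data, and the distance between the starts was not matched. Not every paired small RNA gene was bound: prg-1, sid-1, alg-3 and wago-1 have such neighbours and no pooled peak within 1000 bp.

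**Figure D4:**
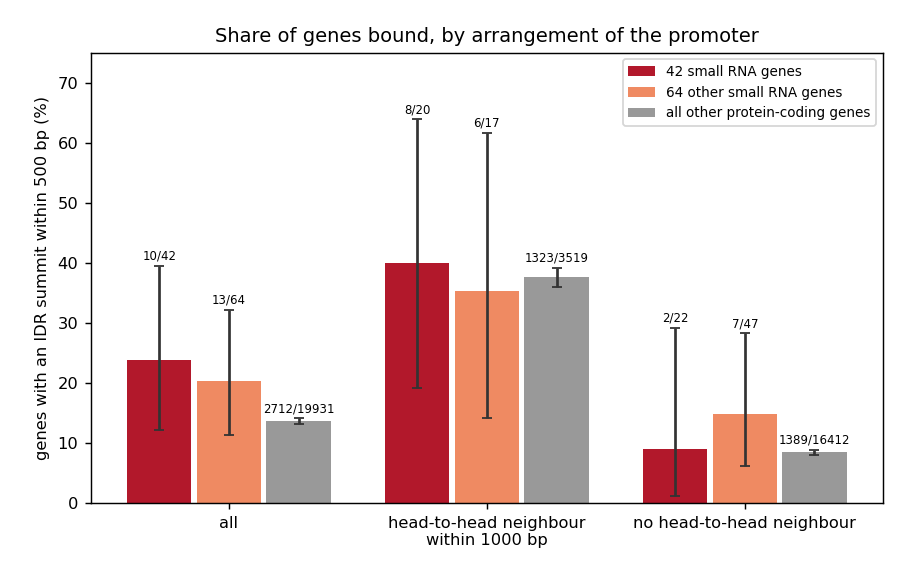
Percentage of genes bound (IDR summit no more than 500 bp from the gene start), for the 42 small RNA genes, 64 other small RNA genes and all other protein-coding genes, over all genes and by whether a start on the opposite strand lies within 1000 bp upstream (bars from 0, with exact 95% intervals that cover counting error only). The small RNA genes stand at 23.8% against 13.6% over all genes, but at 40% against 37.6% with a head-to-head neighbour and 9.09% against 8.46% without.

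For more distant and for weaker peaks the difference in counts remained larger after matching by arrangement. With IDR peaks within 1000 bp, 10 of 20 genes with a neighbour were bound (50%, other genes 43.1%) and 6 of 22 without (27.3%, other genes 11.6%), so that 11.2 would be bound at the rates of other genes where 16 were. The 6 were alg-2, nrde-4, rde-2, rde-12, nrde-2 and ain-1. At rde-2 and nrde-2 the summit lay nearer to another gene, 89 bp from pfd-6 and 418 bp from atad-3. The atad-3 start is on the opposite strand but beyond the 1000 bp limit, so nrde-2 counts as without a neighbour. With any pooled peak within 500 bp, 18.3 would have one and 27 did. Of the 32 small RNA genes without an IDR summit within 500 bp, 17 (53.1%) had a weak pooled summit there, against 27.1% of such other genes. The signals of these weak peaks ran from 9.44 to 55.8 with a median of 18.4, and those at other genes had a median of 15.2. Weak peaks were more common at the 42 genes than at other genes, and their signals overlapped those at other genes. Of the 42, 33.3% had a pooled summit within 500 bp and no IDR summit within 1000 bp. So did 21.9% of the 64 other small RNA genes and 22.0% of other protein-coding genes. Any pooled peak within 500 bp was found at 28 of those 64, where 24.9 would have one at matched rates.

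The E2F letters were found within 50 bp of none of the 10 summits (0 of 10, which allows a share of up to 30% when the limit is set at 3 counts), where 13% of all 3838 IDR summits and 2.46% of windows of the same length at gene starts held them. The reversed E2F letters, with equal composition, were at 0 of 10 as well, and at 8.36% of IDR summits and 1.75% of windows at gene starts. CHR letters were found at 3 of 10, at rrf-3, ekl-1 and nrde-4, against 24.6% of IDR summits and 30.3% of windows at gene starts. The reversed CHR letters, with equal composition, were found at 3 of 10 too, and at 7.58% of IDR summits and 17.5% of windows at gene starts. Among the 6 genes with an IDR summit only beyond 500 bp, rde-12 held both motifs, with the centre of TTGGCGC 2 bp from the summit and that of TTCGCGC 32 bp from it. rde-2 and nrde-2 held CHR letters alone. The absence of these letters from a window says nothing about which proteins bind there.

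Other genes of small RNA pathways, a list of 69 symbols of which 64 were in the annotation, were bound at 13 of 64 (20.3%, exact 95% interval 11.3 to 32.2). That interval reached below the 13.6% of other protein-coding genes. Of these, 17 (26.6%) had a head-to-head neighbour, and 10.4 would be bound at the rates of other genes of the same arrangement. The strongest peaks were at vig-1, which encodes an RNA-binding protein of the microRNA silencing complex (signal 1623, rank 31, and 78 and 28 in the replicates), and at pash-1, the DGCR8-like partner of Drosha that processes microRNA precursors (signal 1618, rank 33, and 14 and 54). Both ranked above every peak at the 42 genes. Next were simr-1 (a factor between piRNAs and Mutator foci, signal 512), tost-1 (signal 368) and nyn-2 (signal 185), which share their peaks with C06A5.3, arx-6 and cyn-15. Of the piRNA biogenesis genes, snpc-4 (signal 176), pid-3 (signal 156), tofu-1 (signal 102), tofu-5 (signal 88.1) and tofu-6 (signal 79.2) were bound. Others on the list, among them prde-1, tofu-2, tofu-4 and pid-1, were not. The remaining bound genes were tsn-1 (signal 154), emb-4 (signal 139) and rsd-3 (signal 61.4). tofu-1, tofu-5 and tsn-1 also shared their peaks, with ruvb-1, nuo-6 and F10G7.9, whose starts lay nearer to the summit in each case.

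By chromosome, the bound genes were 3 of 11 on chromosome I, 3 of 5 on II, 1 of 9 on III, 2 of 8 on IV, 1 of 6 on V and 0 of 3 on X. Other genes were bound at 20.9% on I, 12.8% on II, 22.1% on III, 13% on IV, 8.64% on V and 8.54% on X. On chromosome III, where other genes had the highest share, rde-4 was the bound small RNA gene. Of the 42, rde-2, drh-3, eri-1 and nrde-1 were candidate downstream operon genes, having another gene on the same strand end within 500 bp upstream. The first gene of such a pair was bound for rde-2 (pfd-6), but not for drh-3 (D2005.7), eri-1 (daf-18, with a weak peak of signal 29.6) or nrde-1 (alkb-8).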

How the data were processed

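LIN-35 ChIP-seq peaks came from 1 group of 2 replicates. The authors deposited peak lists with a signal value and a summit offset for each peak, in the ce11 and ce10 builds. Per the deposited file manifest, each replicate list (23861 and 30000 peaks) was derived from that replicate's alignment, the pooled list (30000) from both, each with a further file whose role it does not name, and the IDR list (3838) from all 3 lists. The IDR list was found to be the 3838 strongest pooled peaks. Not given in the sources used here are the aligner, the caller of the peaks and the threshold of the IDR step. Signal may be scaled differently between lists and was used only to rank and describe peaks. ce10 lists were not used, and no coordinate was converted. All ce11 peaks lay within the WBcel235 chromosomes. Positions are printed from 1.

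Genes were taken from Ensembl release 115 and sequence from RefSeq, and processed in Python 3.11.15 with SciPy 1.17.1. Replicate peaks were matched by an overlap of at least 1 bp. Window counting was tested on simulated data. Intervals are exact (Clopper-Pearson), with the limit for a count of 0 set at 3 counts instead. They cover counting error only and treat genes as independent, though neighbours share peaks. The 42 genes and the lists were chosen with earlier results of these data known, so counts are described beside those of other genes and no test was made. Named genes were all those with an IDR summit within 1000 bp or a pooled summit within 500 bp, the members with neither by group, their peak partners and the bound genes of the wider list. The mut-16 peak just beyond 500 bp, the alg-1 inner and upstream peaks, the weak peak of eri-1, replicate-only peaks and neighbouring operon genes were added after their values were seen. Alternatives were windows of 250 and 1000 bp, all pooled peaks, the stronger 1919 IDR peaks, each replicate alone, any transcript start, nearest start only, no candidate downstream operon genes, any part of the peak, and, for motifs, 100 bp windows and reversed letters. Matching by head-to-head arrangement was added after seeing the data and used the presence of such a neighbour, not its distance.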

Additional observations from a re-analysis of the deposited data

How the results depend on the processing

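The count of 10 bound small RNA genes stayed between 7 (250 bp) and 11 (any transcript start), except at 16 within 1000 bp, 27 and 31 with all pooled peaks within 500 and 1000 bp, and 6 with the nearest start only. The share of other genes bound moved from 13.6% to 9.08% (250 bp), 17.2% (1000 bp), 37.0% and 50.1% (pooled peaks), 8.83% (stronger 1919 peaks), 14.4% (any transcript start), 10.6% (nearest start), 14.5% (no candidate operon genes) and 14.6% (any part of the peak). The difference of 10.2 percentage points between small RNA genes and other genes kept its sign throughout. In the same order it was 7.59, 20.9, 27.2, 23.7, 12.6, 11.8, 3.71, 11.8 and 9.18, with each replicate alone 8.38 to 10.3, and with matched arrangement 1.47, a setting added after seeing the data. The wider list went from 13 bound to 28 with pooled peaks within 500 bp (43.8%, other genes 37.0%). Within 1000 bp it went to 36 (56.2%, other genes 50.1%). The median rank of 1008 moved to 826.0 within 250 bp and 1490 with the nearest start only. CHR letters were at 8 of 10 summits within 100 bp, where 43.3% of IDR summits and 50.5% of windows at gene starts held them. The number of genes with any pooled peak, 27, was 26 (61.9%, other genes 37.5%) in the replicate 2 list, 21 (50%, other genes 32.3%) in the replicate 1 list and 19 (45.2%, other genes 33.4%) for the nearest start only, where the difference from other genes was the smallest of these. The cause of these changes was not tested, beyond the wider or narrower criteria themselves. Read depth is unknown, so weak peaks and absent peaks at the unbound genes set no limit on binding, and 42 genes give wide intervals.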

Other observations

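The letters GCGCCAG recur in the sequences printed for alg-2, rde-12 and nrde-2 and were noticed there, after the sequences had been read out. In a search of both strands, up to 50 bp from each summit, they were present at 6 of the 16 small RNA genes with an IDR summit within 1000 bp. These were alg-2, rde-8 (with 2 copies), ekl-1, rde-2, rde-12 and nrde-2, and the centres of the letters lay from 5 to 16 bp from the summit. The same letters were within 50 bp of 163 of all 3838 IDR summits (4.25%), of 6.77% of the stronger 1919, of 0.447% of 26162 weaker pooled summits and of 0.350% of windows at gene starts. Since the letters were chosen from these peaks, the share at the small RNA genes is a description and was not tested.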
